A study of Mus musculus with 6 samples.

Results

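The circadian clock genes of the mouse adrenal gland were followed library by library in wild-type and in Armc5(-/-) mice. The set held 10 genes, chosen by name: Arntl, Clock, Per1, Per2, Per3, Cry1, Cry2, Nr1d1, Nr1d2 and Dbp. Each was found in 1 row, giving 10 of the 59699 rows of the deposited count table. The study sequenced RNA of whole adrenal glands from 3 wild-type samples (WT) and 3 Armc5(-/-) samples (KO). All 6 came from female mice aged 30 weeks on a mixed background given as 129 sv X CD1. Armc5 encodes an armadillo-repeat protein, and the labels give neither the deleted part of the gene nor a promoter or Cre line, so the model is described here only as Armc5(-/-). They also do not give the time of day at which glands were collected, nor whether the samples of a group came from separate animals, and the spread behind each p-value is that among the samples, which may be technical.

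The mammalian clock is a feedback loop of transcription. ARNTL (also called BMAL1) and CLOCK bind DNA as a pair and switch on the Per and Cry genes, whose proteins return to the nucleus and repress that pair, while the nuclear receptors NR1D1 and NR1D2 (the REV-ERBs) repress Arntl in a second loop. In the adrenal the clock is known for gating the daily rhythm of glucocorticoid output, and Arntl peaks in a phase roughly opposite to that of Nr1d1, Dbp and the Per genes, so each library's own values are given.

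The libraries held 70547288 to 130573434 counts. Armc5 itself was at 27.3, 25.3 and 27.8 CPM (counts scaled to library size by the TMM method) in WT 1, 2 and 3, and at 3.58, 3.53 and 3.66 CPM in KO 1, 2 and 3. The log2 fold change was -2.90 (SE 0.10) with an adjusted p of 0.00041 in edgeR's quasi-likelihood test, so the libraries matched their labels. Adrenal cortex markers were present in each library, with all 6 of the list detected. Their summed level ran from 27042 to 47266 CPM in WT and from 22464 to 23821 CPM in KO. Of the 6, 0 were called, where 1.84% of all tested loci were. Chromaffin markers of the medulla summed to 1782 to 2552 CPM in WT and 3687 to 4089 CPM in KO. Of these, 2 of 6 were called higher in KO at an adjusted p under 0.05, as were 1.41% of all tested loci. The 7 hepatocyte markers summed to 3375 CPM in KO 3, against 17.1 to 61.7 CPM in the other libraries. Summed endothelial markers were at 432 to 469 CPM in WT and 311 to 382 CPM in KO. Brown adipocyte markers were at 89.6 to 99.7 CPM in WT and 59.7 to 85.8 CPM in KO. Both sums were lower in KO without overlap, as were 14.2% of all tested loci, with 0 of 4 called in each list. Macrophage markers were highest in WT 2, at 276 CPM, against 76.7 to 158 CPM elsewhere. These marker levels move with the groups or with 1 library, and their part in the values of the clock genes and the other genes described was not tested. Whole-gland RNA cannot tell fewer cells of a type from less RNA per cell.

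None of the 10 clock genes passed the test between KO and WT. The edgeR quasi-likelihood test with Benjamini-Hochberg adjustment over 21358 tested loci called 0 of 10 at an adjusted p under 0.05, where it called 1.84% of all loci. At an unadjusted p under 0.05 it also marked 0 of 10, against 22.2% of all loci. DESeq2 called 0 of 10, against 12.3% of all loci, and limma-voom called 0 of 10, against 7.15%. At an unadjusted p under 0.05, DESeq2 marked 1 of the 10 and limma-voom 2. The share of all loci at that threshold was not counted for either method, so these counts have no background beside them. The log2 fold change was above 0 for 2 genes and below 0 for 8, with a median of -0.12 beside -0.0063 over all loci. Clock alone of the 10 had groups that did not overlap, where 30.5% of all loci did so. All 10 passed the filter on low counts, and the lowest count behind any value was 376, for Cry1 in KO 2.

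**Figure D1:**
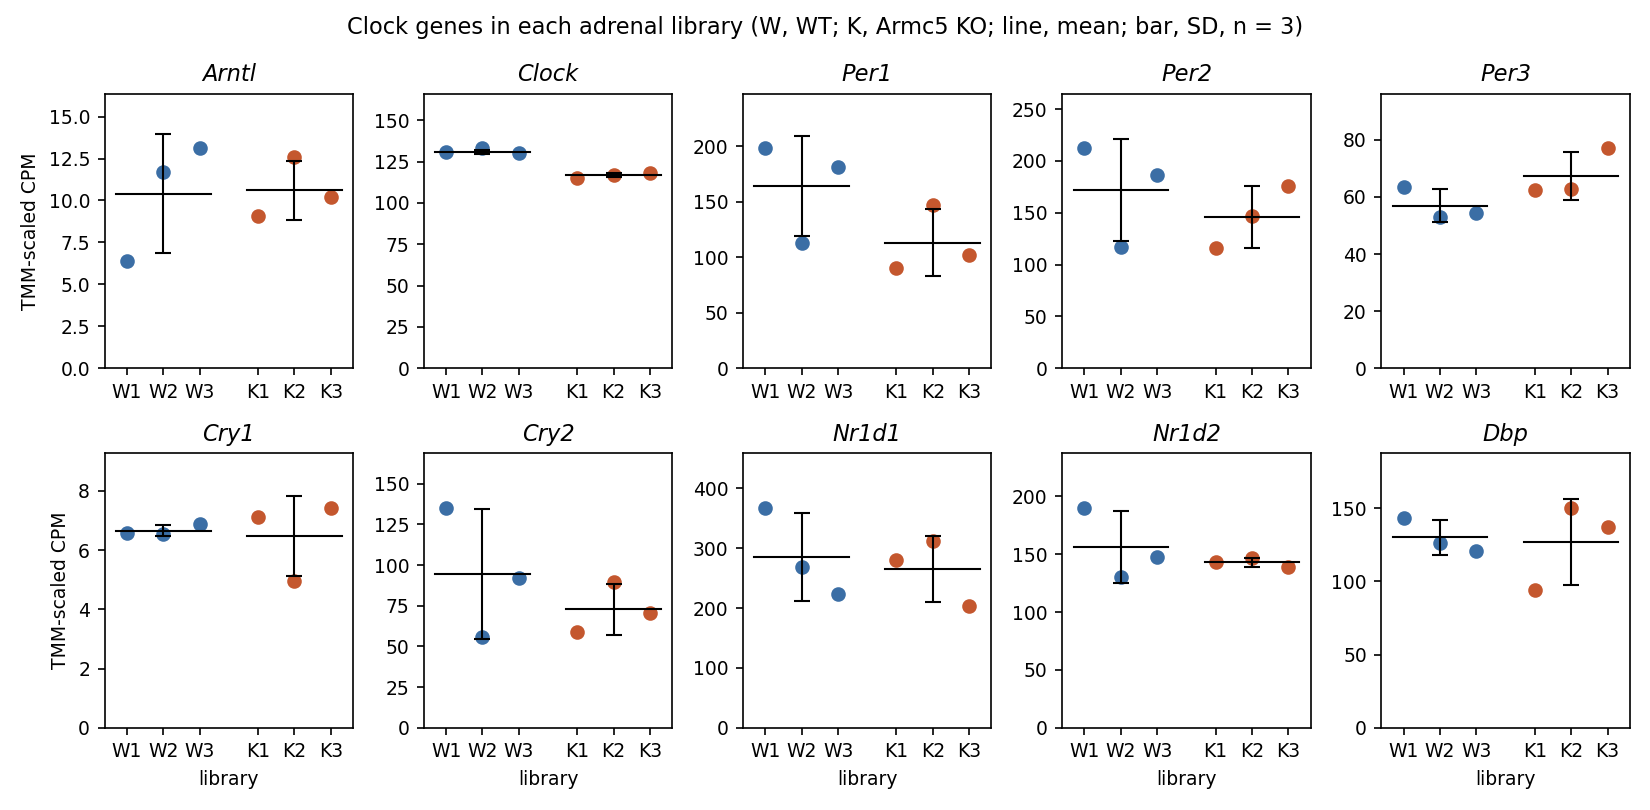
CPM (TMM-scaled) of each of the 10 clock genes in the 3 WT and 3 KO libraries. Points are libraries, lines the mean and bars the SD (n = 3). The groups overlap in each panel except that of Clock, where KO sits at 115 to 118 CPM and WT at 130 to 133 CPM under this scaling. The log2 fold change of Clock was 0.06 with total counts and 0.03 with Rn7sk, where the median of all loci was 0.22 and 0.19.

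Among the activators, Arntl (chr7:113207465-113314126, plus strand, GRCm38) was one of the lowest genes of the set. It stood at 6.42, 11.7 and 13.1 CPM in WT 1, 2 and 3, and at 9.09, 12.6 and 10.2 CPM in KO 1, 2 and 3. WT 1 lay below the other libraries and WT 3 above them, so the WT values enclosed the KO values. Between the groups its log2 fold change was 0.03 (SE 0.28, 95% interval -0.65 to 0.71, adjusted p = 0.963), a range that leaves room for a sizeable change in either direction.

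Clock (chr5:76209868-76304792, minus strand), which encodes the partner of ARNTL, varied least. Its values were 131, 133 and 130 CPM in WT and 115, 117 and 118 CPM in KO. Each KO library lay below each WT library, with an SD of 1.32 CPM in WT and 1.42 CPM in KO. KO minus WT gave a log2 fold change of -0.17 (SE 0.07, 95% interval -0.34 to 0.00), with an unadjusted p of 0.0512 and an adjusted p of 0.227 in edgeR's test. Scaling to total counts gave Clock 0.06 and scaling to Rn7sk, an abundant small nuclear RNA, gave 0.03, where the median of all loci moved to 0.22 and 0.19. Across all loci, 14.2% had KO values below WT values without overlap. The row of Clock also carried the name of a pseudogene on the same strand, Ube2n-ps1, so reads of both were counted together.

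Of the repressors, Per1 (chr11:69095217-69109960, plus strand), a period gene that is also a direct target of the glucocorticoid receptor, had the lowest fold change of the set. It was at 198, 113 and 181 CPM in WT and at 90.4, 147 and 102 CPM in KO. WT 1 and WT 3 lay above the KO libraries, while WT 2 lay between them. For Per1 the log2 fold change was -0.53 (SE 0.27, 95% interval -1.18 to 0.11, adjusted p = 0.294), so neither no change nor a marked decrease lies outside the interval.

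Per2 (minus strand of chromosome 1), a period gene that acts in the same repressor complex, read 212, 117 and 186 CPM in WT and 116, 147 and 176 CPM in KO. WT 1 was again the highest library, and WT 2 and KO 1 were nearly equal at the bottom. Its log2 fold change was -0.23 (SE 0.25, 95% interval -0.84 to 0.38, adjusted p = 0.628). Per3 (chr4:151003652-151044665, minus strand), whose loss alters the clock less than that of the other period genes, read 63.5, 53 and 54.4 CPM in WT and 62.5, 62.7 and 77 CPM in KO. KO 3 stood above the rest, and WT 1 fell among the KO libraries. Its log2 fold change of 0.24 (SE 0.12, 95% interval -0.05 to 0.54, adjusted p = 0.3) was the highest of the set. Per3 lies inside the span of Camta1 on the same strand, and Camta1 was at 14.7, 14.5 and 23.2 CPM in WT and 23.9, 25.9 and 27.3 CPM in KO, with an adjusted p of 0.184. Whether reads were shared between the loci was not tested.

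The cryptochromes, which repress ARNTL and CLOCK directly, were unlike each other in spread. Cry1 (chr10:85131700-85185064, minus strand) was at 6.57, 6.55 and 6.87 CPM in WT and at 7.11, 4.94 and 7.42 CPM in KO. The WT libraries were close together, with KO libraries on both sides of them. For Cry1 the log2 fold change was -0.04 (SE 0.19, 95% interval -0.48 to 0.41, adjusted p = 0.928). Cry2 (chr2:92403646-92434043, minus strand) was at 135, 55.7 and 92.3 CPM in WT and at 58.6, 89.6 and 70.6 CPM in KO. Both its highest and its lowest library were WT, a ratio of 2.43 that was the widest of the set. Its log2 fold change was -0.37 (SE 0.33, 95% interval -1.16 to 0.42, adjusted p = 0.538). Cry2 overlaps D930015M05Rik on the opposite strand.

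In the second loop, Nr1d1 (chr11:98767932-98775333, minus strand) encodes the heme-binding repressor REV-ERB alpha. It stood at 367, 269 and 223 CPM in WT and at 280, 312 and 203 CPM in KO. WT 1 was highest and KO 3 lowest, with the others interleaved. The log2 fold change was -0.11 (SE 0.23, 95% interval -0.67 to 0.45, adjusted p = 0.819). It overlaps Thra on the opposite strand, which was at 48.8 to 50.3 CPM in WT and 51.8 to 86 CPM in KO. Nr1d2 (minus strand of chromosome 14), which encodes the related REV-ERB beta, read 190, 130 and 148 CPM in WT and 143, 147 and 139 CPM in KO. The KO libraries were tightly grouped, within the range of the WT libraries. Its log2 fold change was -0.12 (SE 0.15, 95% interval -0.48 to 0.23, adjusted p = 0.661).

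Dbp (chr7:45705088-45710203, plus strand) encodes a PAR bZIP factor that binds D-boxes and is a standard readout of clock output. It was at 143, 126 and 121 CPM in WT and at 93.9, 150 and 137 CPM in KO. KO 1 was the lowest library and KO 2 the highest, so the KO values enclosed the WT values. The log2 fold change was -0.03 (SE 0.18, 95% interval -0.48 to 0.41, adjusted p = 0.936). Dbp overlaps Sphk2 on the opposite strand, which was at 37.2 to 42 CPM in WT and 31.6 to 34.3 CPM in KO, with an adjusted p of 0.182.

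**Figure D2:**
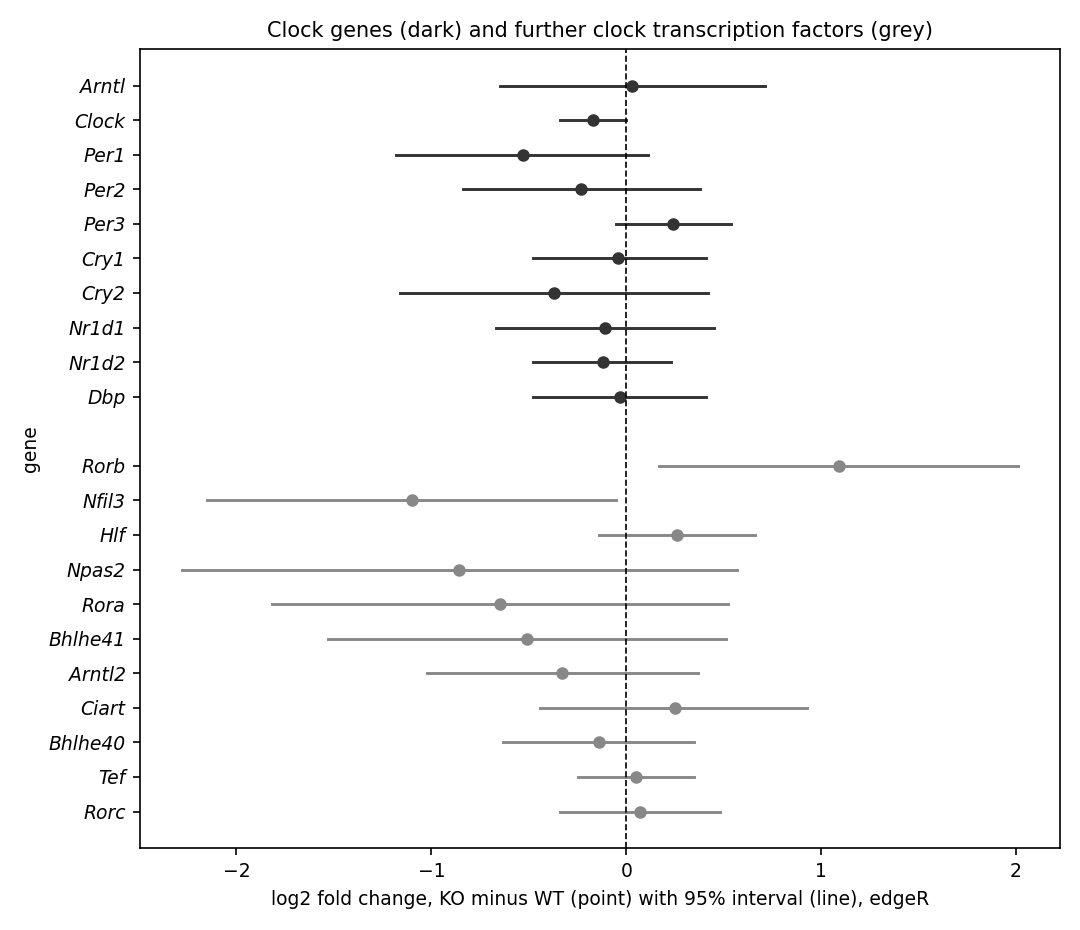
Log2 fold change of KO over WT (points) with 95% intervals (lines) from edgeR, for the 10 clock genes (dark) and 11 further clock transcription factors (grey). All 10 intervals of the clock genes include 0, that of Clock ending at 0.00. With total-count or Rn7sk scaling the point of Clock lies above 0, at 0.06 and 0.03, where the median of all loci is at 0.22 and 0.19.

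To set Arntl against genes of the opposite phase, ratios were formed within each library. The log2 ratio of Dbp to Arntl was 4.48, 3.43 and 3.20 in WT 1, 2 and 3, and 3.37, 3.58 and 3.74 in KO 1, 2 and 3. WT 1 stood above the other 5 libraries, which lay close together. The groups had means of 3.70 (SD 0.68, n = 3) and 3.56 (SD 0.18, n = 3). For Nr1d1 to Arntl the values were 5.84, 4.52 and 4.08 in WT and 4.94, 4.63 and 4.31 in KO. For Per1 to Arntl they were 4.95, 3.27 and 3.78 in WT and 3.31, 3.55 and 3.31 in KO. In each of these ratios WT 1 was highest, and the groups overlapped. Per2 to Arntl (5.05, 3.33 and 3.83 against 3.67, 3.55 and 4.10) and Per3 to Arntl (3.31, 2.18 and 2.05 against 2.78, 2.32 and 2.91) also had WT 1 on top. WT 1 was the library lowest in Arntl, and that value enters all 5 ratios.

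The order of the libraries was read for each gene. WT 1 was the highest WT library for 7 of the 10 genes, where it was so for 36.3% of all tested loci, and the exceptions were Arntl, Clock and Cry1. The order WT 1, WT 3, WT 2 held for 5 genes (Per1, Per2, Per3, Cry2 and Nr1d2) and for 21.5% of all loci. Among the KO libraries, KO 2 was highest for 6 genes (35.9% of all loci), KO 3 for 4 (32.2% of all loci) and KO 1 for none of them (31.9% of all loci). The order KO 2, KO 3, KO 1 was shared by Arntl, Per1, Cry2 and Dbp, and by 16.5% of all loci, so in KO Arntl and Dbp had the same order of libraries. WT 1 also had the highest summed cortex markers, at 47266 CPM, and the lowest summed chromaffin markers, at 1782 CPM; the part of either in the order was not tested.

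**Figure D3:**
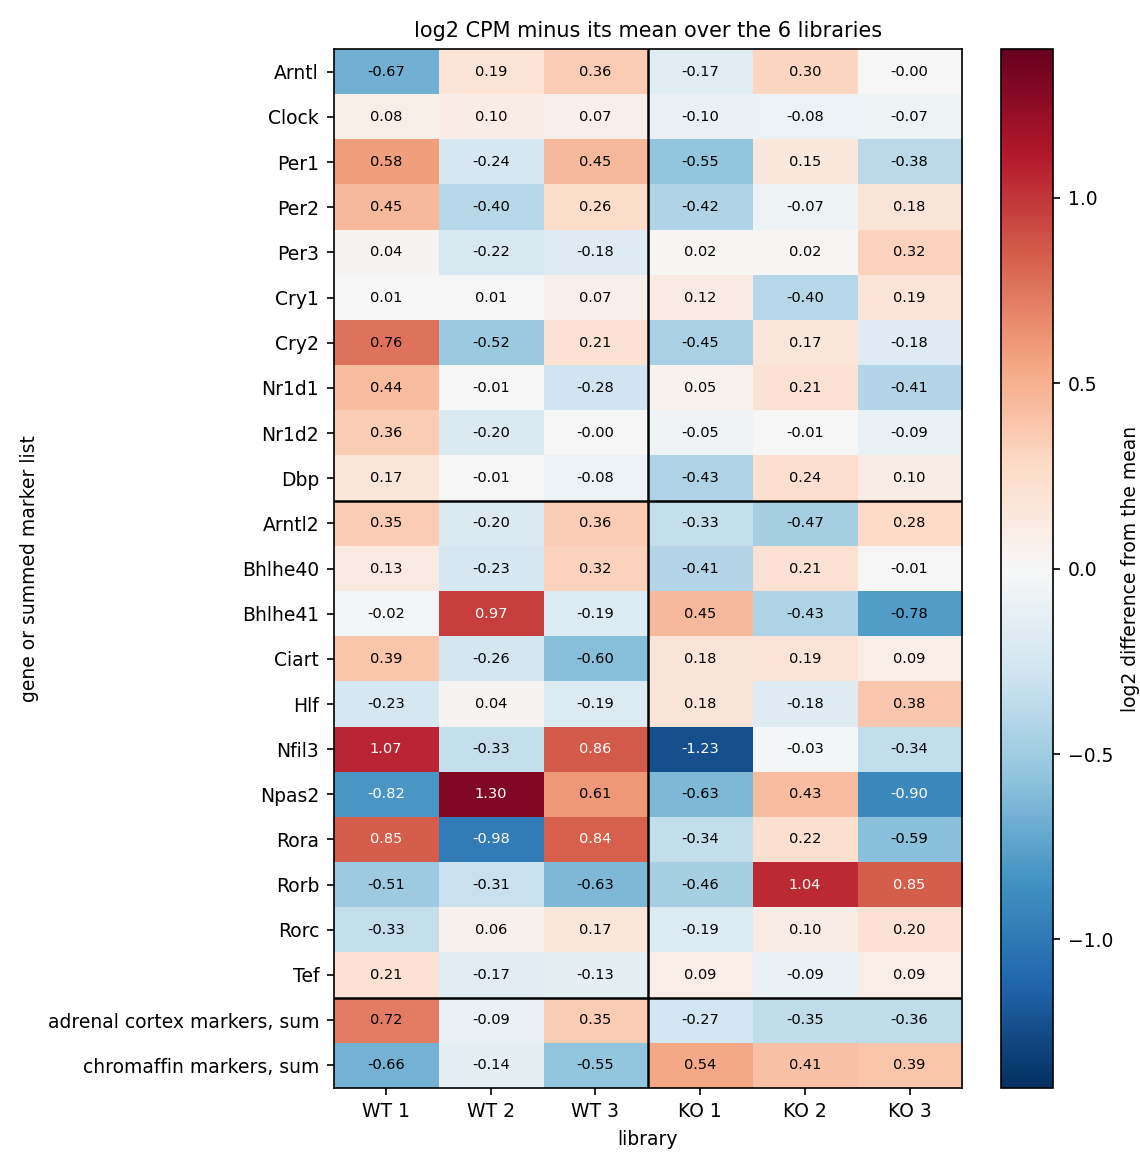
Heat map of log2 CPM minus the mean over the 6 libraries, for the clock genes (top), further clock transcription factors (middle) and summed cell markers (bottom), with libraries in columns. Arntl is at -0.67 in WT 1, where Cry2 is at 0.76 and Per1 at 0.58. In the same column Dbp is at 0.17, Per3 at 0.04, Nfil3 at 1.07, Rora at 0.85 and the summed cortex markers at 0.72.

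The ratio of the highest to the lowest library had a median of 1.7 over the 10 genes, beside 1.59 over all loci with a mean of at least 1 CPM. It ran from 1.15 for Clock, where 3.96% of those loci had a smaller ratio, to 2.43 for Cry2, where 80% did. Per1 had a ratio of 2.19 and Arntl one of 2.05, and Dbp, at 1.6, was near the median of all loci.

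Per kilobase of deposited row length, the genes differed widely in level. Nr1d1 was highest at 81.7 CPM per kilobase (SD 17.6, n = 6), followed by Dbp at 42.9 (SD 6.73, n = 6), and the ranges of the 6 libraries did not overlap between these neighbours or between Dbp and Nr1d2. Nr1d2 (12), Per1 (11), Clock (8.12), Per2 (7.73), Cry2 (5.56) and Per3 (4.87) formed a run in which each neighbour overlapped the next. Cry1 at 1.97 and Arntl at 1.4 CPM per kilobase were lowest, below Per3 without overlap and overlapping each other. The order within the middle run depended on the length used. The deposited row of Per2 was 20594 bases long and began at chr1:91330701, while the exons of Per2 in GENCODE cover 5856 bases from 91415982 on, a ratio of 3.52. Per kilobase of GENCODE exons, Per2 was at 27.2 CPM and moved from rank 6 to rank 4. That value divides the count of the whole row by the exon length, so reads outside the exons can raise it. The row of Nr1d2 also ran past the gene, from 18147720 where GENCODE has 18204054. Cry2, Nr1d2 and Per1 had ratios of 2.38, 2.3 and 2.23, and their rows, like that of Per2, held transcripts assembled from reads.

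**Figure D4:**
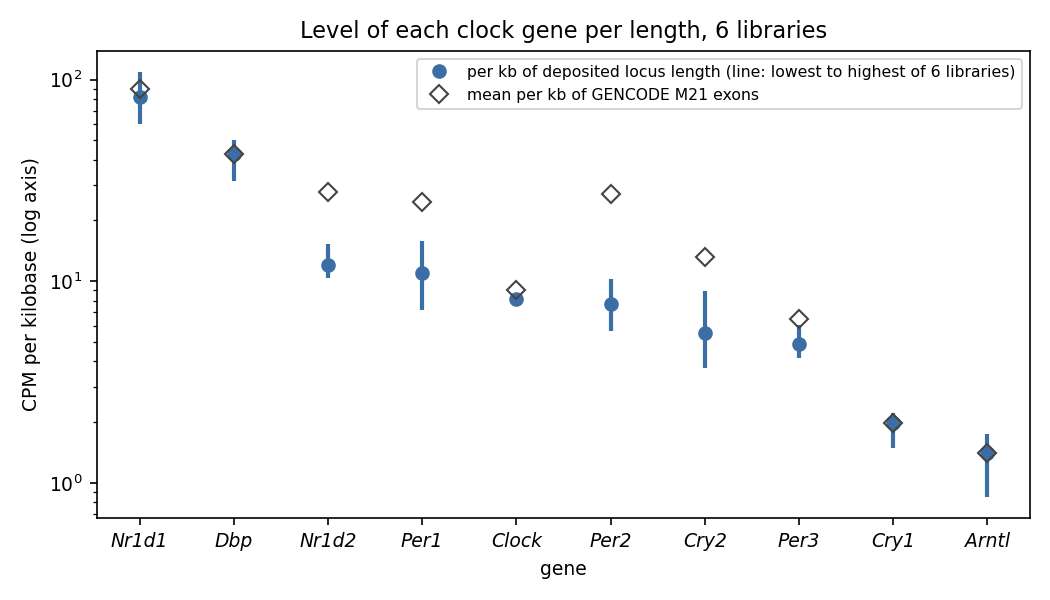
Level of each clock gene on a log axis, as mean CPM per kilobase of deposited row length (circles, with lines from the lowest to the highest of the 6 libraries). Diamonds give the mean CPM of the same whole row per kilobase of GENCODE exons. Nr1d1 and Dbp lie above the rest, and Cry1 and Arntl below, at 1.97 and 1.4 on average.

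The promoters of the genes are shown where they hold the letters through which clock factors act. RefSeq promoter entries on GRCm38.p6 were found for 9 of the 10 genes, in 13 entries, but not for Per2. Each window of 300 bases was searched on both strands for the E-box CACGTG and its variant CACGTT, bound by ARNTL and CLOCK, the D-box TTATGTAA or TTACGTAA, bound by DBP, the RORE core TAGGTCA or TGGGTCA, bound by the REV-ERBs and RORs, and the CRE TGACGTCA. No match overlapped another. The 250 bases before the start are printed 5′ to 3′ on the gene's strand for the 5 genes with a match there, with the matches in capitals; AACGTG is CACGTT read on the other strand.
Per1 (chr11:69098699-69098948, plus strand): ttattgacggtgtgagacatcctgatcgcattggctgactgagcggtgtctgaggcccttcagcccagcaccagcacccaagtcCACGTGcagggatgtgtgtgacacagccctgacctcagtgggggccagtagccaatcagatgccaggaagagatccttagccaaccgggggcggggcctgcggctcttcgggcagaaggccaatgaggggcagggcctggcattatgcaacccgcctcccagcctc
Cry1 (chr10:85185055-85185304, minus strand): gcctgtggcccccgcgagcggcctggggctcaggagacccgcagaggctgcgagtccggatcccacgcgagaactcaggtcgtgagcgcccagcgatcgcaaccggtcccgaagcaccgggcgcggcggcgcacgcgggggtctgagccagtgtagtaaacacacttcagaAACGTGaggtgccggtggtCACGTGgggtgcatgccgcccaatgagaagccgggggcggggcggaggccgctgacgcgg
Cry2 (chr2:92434070-92434319, minus strand): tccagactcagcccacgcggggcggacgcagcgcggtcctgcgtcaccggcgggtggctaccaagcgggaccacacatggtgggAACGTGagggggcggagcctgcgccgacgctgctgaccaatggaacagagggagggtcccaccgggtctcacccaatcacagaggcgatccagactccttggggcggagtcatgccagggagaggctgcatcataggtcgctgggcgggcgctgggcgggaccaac
Nr1d1 (chr11:98775378-98775627, minus strand): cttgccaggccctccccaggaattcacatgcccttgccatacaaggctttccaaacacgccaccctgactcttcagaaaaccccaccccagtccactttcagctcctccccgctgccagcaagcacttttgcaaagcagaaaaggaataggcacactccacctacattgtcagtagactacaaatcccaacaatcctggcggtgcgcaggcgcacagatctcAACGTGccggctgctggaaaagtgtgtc
Per3 (chr4:151044666-151044915, minus strand): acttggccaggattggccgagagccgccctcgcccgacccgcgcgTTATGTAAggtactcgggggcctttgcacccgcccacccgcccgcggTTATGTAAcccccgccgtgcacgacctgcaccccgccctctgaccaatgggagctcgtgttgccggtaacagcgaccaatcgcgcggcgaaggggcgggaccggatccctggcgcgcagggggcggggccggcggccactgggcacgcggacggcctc
Per1 and Cry1 held the E-box, 166 and 60 bases before the start, as did 7.15% of all 32851 promoters. The E-box variant was found in Cry1, Cry2 and Nr1d1, 79, 166 and 28 bases before the start, and in 4.68% of all promoters. Per3 held the D-box at 205 and again at 158 bases before the start, where 1.06% of all promoters hold one. Arntl held the RORE core 31 bases after one of its starts, as 6.45% of all promoters did within their windows, and the CRE, present in 1.79% of all promoters, was in none of the entries of these genes. Of the 9 genes with an entry, 6 held a match, and Clock, Dbp and Nr1d2 held none. A match describes letters only, and Per1 and Cry1, which share the E-box, had log2 fold changes of -0.53 and -0.04 that did not pass the test.

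Beyond the 10, 11 further transcription factors of the clock gave 0 calls in edgeR (1.84% of all loci), 1 in DESeq2 (12.3% of all loci) and 0 in limma-voom (7.15% of all loci). At an unadjusted p under 0.05 edgeR marked 2 of the 11, beside 22.2% of all loci, a share near that background. Nfil3, which represses through D-boxes, was at 51.6, 19.6 and 44.8 CPM in WT and at 10.5, 24.1 and 19.4 CPM in KO. WT 1 and WT 3 lay above the KO libraries and WT 2 among them, the same arrangement as for Per1. Its log2 fold change was -1.10 (SE 0.44, 95% interval -2.15 to -0.05, adjusted p = 0.209). Rora, an activator of Arntl, was at 490, 138 and 485 CPM in WT and at 214, 316 and 180 CPM in KO, with an adjusted p of 0.47. Rorb, a related receptor, was at 3.67, 4.22 and 3.38 CPM in WT and at 3.8, 10.8 and 9.42 CPM in KO, with an adjusted p of 0.173. Npas2, which can stand in for CLOCK, ranged from 1.36 to 5.93 CPM in WT and from 1.29 to 3.24 CPM in KO.

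The enzymes that modify or degrade clock proteins numbered 15, and edgeR called 0 of them (1.84% of all loci). DESeq2 called 2 (12.3% of all loci) and limma-voom 1 (7.15% of all loci). At an unadjusted p under 0.05 edgeR marked 4 of 15, all with lower means in KO, which is near the 22.2% of all loci. Csnk1e, a kinase of the PER proteins, was at 61.8 to 67.1 CPM in WT and 50.9 to 54.9 CPM in KO, without overlap, with a log2 fold change of -0.28 (SE 0.08) and an adjusted p of 0.117. Of 6 tested rhythmic output genes edgeR called 0 (1.84% of all loci), as did DESeq2 (12.3% of all loci) and limma-voom (7.15% of all loci). In edgeR 3 of them (Tspan4, Tsc22d3 and Usp2, all with lower means in KO) had an unadjusted p under 0.05, beside 22.2% of all loci. Usp2 is also one of the 4 enzymes above, and Tsc22d3 is also one of the receptor targets that follow, so these loci are counted in both lists.

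Because Per1 is also a glucocorticoid receptor target, 6 other targets of that receptor were read beside it. Klf9 and Sgk1 fell in KO, 2 of 6, where 0.431% of all loci were called lower, and the list's median log2 fold change was -0.49. Klf9, a transcription factor, was at 195, 190 and 215 CPM in WT and at 133, 138 and 139 CPM in KO, a log2 fold change of -0.55 (SE 0.09, adjusted p = 0.0437). Sgk1, a kinase of sodium transport, was at 173, 159 and 152 CPM in WT and at 97, 114 and 108 CPM in KO, a log2 fold change of -0.60 (SE 0.10, adjusted p = 0.0465). In both genes the groups did not overlap. Dusp1, a phosphatase of MAP kinases, was at 159, 124 and 102 CPM in WT and at 68.1, 89.9 and 87.4 CPM in KO, without overlap, with a log2 fold change of -0.65 (SE 0.19) that did not pass the test (adjusted p = 0.13). Tsc22d3, which encodes the leucine zipper protein GILZ, was at 42.8 to 61.5 CPM in WT and 34.7 to 45.7 CPM in KO, with a log2 fold change of -0.43 and an adjusted p of 0.214. Fkbp5, the co-chaperone of the receptor, was at 67.6 to 84 CPM in WT and 38 to 80.4 CPM in KO, with an adjusted p of 0.53, and Zbtb16 at 38.8 to 49.3 CPM in WT and 45.8 to 69.6 CPM in KO, with an adjusted p of 0.263. Both edgeR calls rest close to the threshold. DESeq2 called 3 of the 6 targets (12.3% of all loci) and limma-voom 2 (7.15% of all loci). For Klf9 the adjusted p was 1.36e-06 in DESeq2 and 0.0177 in limma-voom. For Sgk1 it was 8.43e-05 in DESeq2 and 0.0252 in limma-voom. The edgeR calls held with RLE scaling, another way to scale libraries (adjusted p = 0.0424 for Klf9 and 0.0482 for Sgk1). They also held with no filter beyond 1 count, with a filter at 10 CPM and with unnamed loci kept. Several other settings did not keep them. With total-count scaling the log2 fold change was -0.32 for Klf9 and -0.37 for Sgk1 (adjusted p = 0.101 for each). With Rn7sk scaling it was -0.35 for Klf9 (adjusted p = 0.214) and -0.40 for Sgk1 (adjusted p = 0.121). These 2 scalings moved the median log2 fold change of all loci to 0.22 and 0.19. With a replicate block the fold changes stayed at -0.55 and -0.60, with an adjusted p of 0.145 for Klf9 and 0.154 for Sgk1. Without KO 3, the library with hepatocyte markers, they were as large, at -0.56 for Klf9 (adjusted p = 0.129) and -0.61 for Sgk1 (adjusted p = 0.135). Leaving out each library in turn gave an adjusted p of 0.043 to 0.185 for Klf9, which passed only without WT 2, and of 0.0633 to 0.185 for Sgk1, which passed in none of these fits.

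The loci most like Dbp over the 6 libraries were found by the root mean square difference of centred log2 CPM, among 15253 loci. They were Ddb2 (0.064), Gm12183 (0.064), Gm7808 (0.071), Atg4d (0.074) and Gm5532 (0.085), where the median locus was at 0.322. Among the clock genes, Clock (0.220) and Nr1d2 (0.232) were nearest to Dbp and Arntl (0.415) was farthest. For Arntl the nearest loci were 4921504A21Rik (0.095), Smad6 (0.097), Fam13a (0.103), Gm37621 (0.104) and Osbpl7 (0.107), with a median locus at 0.431. Clock (0.367) was the nearest clock gene to Arntl too, followed by Dbp (0.415), and Cry2 (0.671) was the farthest. Among the clock genes, Clock had the smallest ratio of highest to lowest library (1.15) and Cry2 the largest (2.43). The distance depends on how much a gene varies as well as on its pattern, so nearness alone does not show a shared pattern. These distances describe 6 libraries and carry no test.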

How the data were processed

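RNA from whole adrenal glands (250 ng, ribosomal RNA depleted, directional kit, read as pairs of 100 bases) was processed with Trimmomatic, STAR, Picard, StringTie and edgeR on GRCm38, per the submitters' processing notes. How loci were counted, with or without strand, is not given in the sources used here, so reads of overlapping genes cannot be told apart. The deposited file gives raw counts per locus from the authors; its other value column used here, gene length, is as deposited by the authors. A further 16 columns of values were not used. Rows without a gene name (6596, holding 1.39% to 2.04% of counts) were left out. Counts were filtered by expression, scaled by TMM and tested with edgeR 4.0.16's quasi-likelihood test under R 4.3.3 on the 3 WT and 3 KO samples, with no covariate, and adjusted by the Benjamini-Hochberg method over 21358 loci. DESeq2 1.42.0 and limma 3.58.1 served as alternatives, beside other scalings, filters, a replicate block and leaving out libraries. The code was tested on simulated data. The clock genes were named by the rule that all 10 are described, and the 5 loci nearest to Dbp and to Arntl. The members and all lists were chosen with earlier results of these data known.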

Additional observations from a re-analysis of the deposited data

How the results depend on the processing

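The count of called clock genes was 0 of 10 under the 16 alternatives run, and of 159 single-gene values 26 changed sign. Per1 (-0.77 to -0.28) and Per3 (0.14 to 0.48) kept their direction in all of them. With total counts, the log2 fold change was 0.06 for Clock, 0.02 for Per2, 0.19 for Cry1, 0.13 for Nr1d1, 0.12 for Nr1d2 and 0.20 for Dbp, and with Rn7sk scaling 0.03 for Clock, 0.18 for Cry1, 0.09 for Nr1d1, 0.09 for Nr1d2 and 0.17 for Dbp; these scalings moved the median of all loci to 0.22 and 0.19. Dbp was at 0.04 with a filter at 10 CPM, and limma-voom gave -0.14 for Arntl and 0.05 for Nr1d1. Leaving out 1 library ranged from -0.22 to 0.23 for Arntl, -0.43 (without WT 2) to -0.05 (without WT 1) for Per2, -0.63 to -0.02 for Cry2, -0.15 to 0.12 for Cry1, -0.26 to 0.11 for Nr1d1, -0.22 to 0.04 for Nr1d2 and -0.17 to 0.14 for Dbp. Clock was at -0.18 to -0.14 in the fits without 1 library. Without both WT 1 and KO 3, Arntl was at -0.20, Cry2 at 0.00, Nr1d1 at 0.27 and Nr1d2 at 0.06. Over all loci, 393 calls became 674 with total counts, 711 with Rn7sk, 2626 with DESeq2, 1527 with limma-voom, 16 without WT 1 and KO 3, and 15 to 644 without 1 library. The 2 calls among 54 other clock-related loci (1.84% of all loci) became 1 with total counts and 0 with Rn7sk. DESeq2 called 7 of the 54, where it called 12.3% of all loci, and limma-voom 3, where it called 7.15%. There were 0 calls without WT 1 and KO 3, and 0 to 2 without 1 library. With the replicate block, all loci gave 5 calls and the other genes 0. Same-numbered samples had correlations of deviations from their group means of -0.0857, 0.0118 and -0.142. The labels do not say what the numbers mark, and these values cannot settle whether they pair the samples. The cause of these changes was not tested. With 3 samples a group, an interval as wide as -1.16 to 0.42 (Cry2) limits what could be seen, and single time points cannot give a rhythm's phase.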

Other observations

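Immediate early genes, which respond within minutes to stimuli, were represented by 7 loci of 6 genes. Junb had 2 of these loci, and 1 of them was near the floor, at 0.0499 to 0.249 CPM over the libraries. The other was at 526, 245 and 416 CPM in WT and at 162, 277 and 279 CPM in KO. Its log2 fold change was -0.72 (SE 0.33, adjusted p = 0.256 in edgeR). In edgeR 0 of the 7 loci were called (1.84% of all loci), with 2 at an unadjusted p under 0.05 (22.2% of all loci). DESeq2 called 1 (12.3% of all loci) and limma-voom 0 (7.15% of all loci). Nr4a1, an orphan nuclear receptor induced by ACTH in the adrenal cortex, was at 1316, 786 and 812 CPM in WT and at 299, 689 and 482 CPM in KO, without overlap, with a log2 fold change of -0.99 (SE 0.35, adjusted p = 0.175). Egr1, a zinc-finger factor, was at 817, 382 and 191 CPM in WT and at 171, 181 and 243 CPM in KO, with an adjusted p of 0.219. WT 1 was the highest library for both, and Fos ranged from 85.3 to 170 CPM in WT and from 104 to 167 CPM in KO.

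Among 11 co-factors of the clock, edgeR (1.84% of all loci), DESeq2 (12.3% of all loci) and limma-voom (7.15% of all loci) each called 0. At an unadjusted p under 0.05 edgeR marked 2, near the 22.2% of all loci. Hdac3, the deacetylase recruited by the REV-ERBs, was at 56.1 to 63.5 CPM in WT and 47.4 to 48.5 CPM in KO (log2 fold change -0.29, SE 0.08, adjusted p = 0.13). Ncor1, the corepressor that carries it, was at 289 to 308 CPM in WT and 267 to 278 CPM in KO (adjusted p = 0.457). Ncoa2, a coactivator, was at 119 to 133 CPM in WT and 141 to 146 CPM in KO (adjusted p = 0.202).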
